A study of Mus musculus with 4 samples.

Results

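The tRNA genes described here are the 6 that the mouse mitochondrial genome carries on its plus strand ahead of mt-Co1, namely mt-Tf, mt-Tv, mt-Tl1, mt-Ti, mt-Tm and mt-Tw. They were taken as the rows of the deposited table with the Ensembl biotype Mt_tRNA, plus strand and a start before mt-Co1, which gave 6 of 17259 listed genes, 6 of the 37 mitochondrially encoded genes and 6 of the 22 mitochondrial tRNA genes. RNA was sequenced from brown adipose tissue (BAT), the heat-producing fat, of wild-type (WT) mice in 2 libraries of isolated mitochondria and 2 libraries whose treatment label reads tissue minus mitochondria. The labels give no age or sex of the animals and do not say whether the 2 libraries of a group came from separate animals, so every p-value measures only the spread between these libraries, which may be technical. Because sample titles name the second group total and the study also speaks of BAT lysates, it may be the whole tissue, and it is called the non-mitochondrial fraction here after its treatment label. Each comparison below asks how the RNA of these tRNA genes was divided between both preparations and how it stood against the rRNA and mRNA genes of the mitochondrial genome.

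Mitochondrial genes of the heavy-strand transcript are copied as long polycistronic RNAs, in which tRNA sequences lie between most of the rRNA and mRNA sequences. Enzymes cut at the 5' and the 3' end of each tRNA, which frees the tRNA together with its rRNA or mRNA neighbours, and the trimmed tRNA then receives a CCA end, base modifications and its amino acid before it serves the mitochondrial ribosome. The promoter-proximal stretch of this transcript holds both rRNAs, and mt-Tf, mt-Tv and mt-Tl1 flank them, while mt-Ti, mt-Tm and mt-Tw lie around the mRNAs mt-Nd1 and mt-Nd2, which encode subunits of respiratory complex I.

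The gene sequences are printed because the length of these genes and the lack of spacers beside them set which reads could be counted for them. They are read 5' to 3' from the mitochondrial transcripts of GENCODE M21 on build GRCm38, lower case throughout, with the anticodon in capitals as DNA letters and without the CCA end, which is not encoded. All lie on the plus strand, at chrM:1-68 for mt-Tf, chrM:1025-1093 for mt-Tv, chrM:2676-2750 for mt-Tl1, chrM:3706-3774 for mt-Ti, chrM:3845-3913 for mt-Tm and chrM:4950-5016 for mt-Tw, and each gene is 1 exon.
mt-Tf, phenylalanine: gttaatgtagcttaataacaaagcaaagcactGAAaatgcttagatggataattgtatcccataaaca
mt-Tv, valine: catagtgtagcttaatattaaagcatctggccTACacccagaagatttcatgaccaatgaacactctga
mt-Tl1, leucine: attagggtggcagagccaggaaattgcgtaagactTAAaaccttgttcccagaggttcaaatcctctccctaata
mt-Ti, isoleucine: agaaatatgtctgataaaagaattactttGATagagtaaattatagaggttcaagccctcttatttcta
mt-Tm, methionine: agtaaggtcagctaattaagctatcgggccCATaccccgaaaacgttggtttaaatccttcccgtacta
mt-Tw, tryptophan: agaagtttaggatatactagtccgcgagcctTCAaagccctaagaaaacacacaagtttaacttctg

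The 6 sequences were 67 to 75 bases long and 27.5% (mt-Ti) to 44.9% (mt-Tm) GC. Any pair of them shared 42.9% to 55.4% of aligned bases, and no pair came near identity. Matched to nuclear transcripts at 90% identity or more over at least 30 bases, only mt-Tl1 had a match, in Cep295 on chromosome 9, with 93.5% identity over 62 bases. Cep295 had 58 and 14 normalised counts in mitochondria against 31 and 17, below the values of mt-Tl1 in every library.

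Neighbouring genes touched or overlapped these tRNA genes. Between mt-Tf and mt-Rnr1 lay 1 base, and mt-Tv and mt-Tl1 adjoined the rRNA or mRNA gene on either side with 0 bases between them. At mt-Ti the last 2 bases of mt-Nd1 overlapped its start and 3 bases of the minus-strand gene mt-Tq its end, and mt-Tw overlapped mt-Nd2 by 2 bases. Reads were sequenced to 75 bases and those that overlapped several genes were excluded by the study, so a full-length read could be assigned from 0 start positions to mt-Tf and mt-Tv and from 1 to mt-Tl1. For mt-Ti, mt-Tm and mt-Tw that number was 0 if genes on either strand count as overlaps and 63, 65 and 65 if only genes on the same strand do, and which of these held in the counting is not stated. A read of 30 bases, the shortest kept, could be assigned from 40, 40 and 46 positions to mt-Tf, mt-Tv and mt-Tl1 and from 35 to 42 positions to the other 3 on the stricter counting. The values of mt-Tf and mt-Tv are therefore counts of reads with fewer than 75 aligned bases, and for all 6 genes a read across an uncut junction with a neighbour on the same strand was not among those counted.

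In the mitochondria libraries 26288871 and 24910434 reads were counted on genes, and 1 read was worth 8.32 and 6.90 units of the deposited normalised count. The reads behind the non-mitochondrial libraries, with normalised totals of 1590096 and 1905303, are unknown. Mitochondrially encoded genes took 95.3% and 95.5% of the mitochondria libraries and 51.1% and 59.3% of the others. All 10 brown adipocyte markers were above 0 in each library, with summed normalised counts of 2938 and 8171 in mitochondria against 13743 and 12271. The mitochondria replicate 1 stood apart in 6 hepatocyte markers, which summed to 9894 there and to 746 in mitochondria replicate 2, against 246 and 69 in the non-mitochondrial libraries, where 2 of the 6 were at 0 in replicate 2. The other lists were summed likewise, mitochondria first in ranges. Skeletal muscle markers (5 genes) gave 773 to 2530 and 244 to 505, endothelial markers (4 genes) 7 to 101 and 802 to 815, macrophage markers (4 genes) 206 to 258 and 46 to 48, and red blood cell markers (5 genes) 250 to 635 and 296 to 624. These directions depend on the scaling, since per 1000000 nuclear counts macrophage markers were at 24.8 and 26.4 in mitochondria against 59.1 and 61.9 and skeletal muscle markers at 243 and 99.2 against 314 and 651. Their part in the tRNA values was not tested, and the comparisons below are also given without each library.

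Phenylalanine tRNA mt-Tf, the first gene of the transcript, had normalised counts of 2538 and 1932 in mitochondria (305 and 280 reads) against 77 and 59 in the non-mitochondrial fraction. Valine tRNA mt-Tv, which lies between both rRNA genes and is also known as a structural part of the mitochondrial ribosome in some mammals, had 9187 and 6391 (1104 and 926 reads) against 377 and 417. Leucine tRNA mt-Tl1, which reads UUR codons and whose human counterpart carries the best known site of mutation in mitochondrial encephalopathy with lactic acidosis, had 4211 and 2574 (506 and 373 reads) against 114 and 92. In all 3 the libraries of mitochondria lay above those of the other group on the deposited scale, an order that counts scaled to equal library totals (CPM) turned, with the smallest separation at mt-Tv, 15.3 to 24.4 times over the pairs of libraries.

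Isoleucine tRNA mt-Ti, at the end of mt-Nd1, had 7581 and 5832 in mitochondria (911 and 845 reads) against 37 and 55. Methionine tRNA mt-Tm, which serves both start and inner methionine codons and lies ahead of mt-Nd2, had 7947 and 4327 (955 and 627 reads) against 113 and 110. Tryptophan tRNA mt-Tw, after mt-Nd2, had 1498 and 1125 (180 and 163 reads) against 41 and 30. Again the groups did not overlap on the deposited scale, although CPM turned their order for mt-Tm and mt-Tw, and mt-Ti had the widest separation of the 6, with 106 to 205 times over the pairs of libraries, whereas its level in the non-mitochondrial fraction was among the lowest.

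The lowest read number behind a mitochondria value was 163 for mt-Tw, with a 95% Poisson interval of 139 to 190 reads, and the highest 1104 for mt-Tv, with an interval of 1040 to 1171. These intervals cover counting error only, and the 6 genes together rested on 3961 and 3214 reads. That was 0.0151% of the reads of mitochondria replicate 1 (95% Wilson interval 0.0146% to 0.0155%) and 0.0129% of replicate 2 (0.0125% to 0.0134%). The plot of normalised counts by gene shows both groups apart on the deposited scale and a different order of the genes within each.

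**Figure D1:**
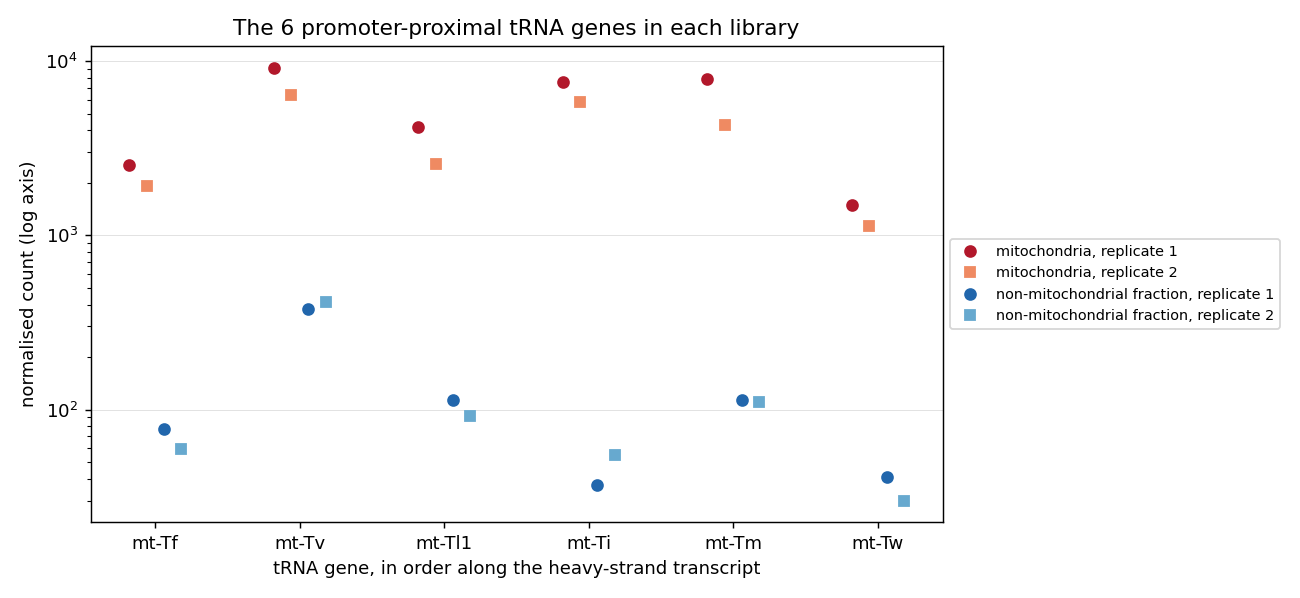
Normalised counts (log axis, deposited scaling) of the 6 promoter-proximal tRNA genes, with 1 point per library, circles for replicate 1 and squares for replicate 2. Mitochondria points run from 1125 to 9187 and non-mitochondrial points from 30 to 417, an order that turns for 5 of the 6 genes when libraries are scaled to equal totals (CPM).

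Per length, mt-Tv was the highest of the 6 in all 4 libraries, with means of 112884 normalised counts per kb in mitochondria and 5754 in the non-mitochondrial fraction. In mitochondria mt-Ti and mt-Tm followed with 97196 and 88942 per kb, and the libraries of both neighbouring pairs in this order, mt-Tv with mt-Ti and mt-Ti with mt-Tm, overlapped. Lower stood mt-Tl1 and mt-Tf, which overlapped, with 45233 and 32868 per kb, and mt-Tw was last in both libraries with 19575. In the non-mitochondrial fraction mt-Tm (1616), mt-Tl1 (1373), mt-Tf (1000.0) and mt-Ti (667) followed mt-Tv without overlap between neighbours, while mt-Ti and mt-Tw (530) overlapped. Among the 22 mitochondrial tRNA genes mt-Tv ranked 5 in both mitochondria libraries and 1 and 2 in the others by normalised count. The gene mt-Ti went the other way, from ranks 7 and 6 to ranks 16 and 14.

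On the deposited scaling, limma fitted on all 8215 genes with a mean of at least 10 called 6 of the 6 tRNA genes higher in mitochondria, whereas CPM over all genes turned the direction of 5 of them. Over all tested genes, 66 or 0.803% were called higher and 362 lower, and the median log2 fold change was -1.23, so that the median of the 6 genes, 5.09, lay 6.32 above the shift of all genes. As log2 of the normalised count plus 1, mitochondria over non-mitochondrial fraction, mt-Ti gave 7.17 ± 0.48 (SE, n = 2 libraries a group, adjusted p = 0.0249, limma) and mt-Tm 5.70 ± 0.53 (adjusted p = 0.0249), and mt-Tw 5.17 ± 0.47 and mt-Tf 5.02 ± 0.46 had the same adjusted p. The lowest values were those of mt-Tl1 at 4.99 ± 0.50 (adjusted p = 0.0277, limma) and mt-Tv at 4.27 ± 0.46 (adjusted p = 0.0313). All 37 mitochondrially encoded genes were called higher in this fit, and the 6 stood below the mRNA and rRNA genes beside them except for mt-Ti: mt-Nd1 gave 7.41 ± 0.45, mt-Nd2 7.15 ± 0.47, mt-Co1 7.48 ± 0.48, mt-Rnr1 7.17 ± 0.47 and mt-Rnr2 7.80 ± 0.46.

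These calls rested on the scaling and on both non-mitochondrial libraries. Without the non-mitochondrial replicate 1, or without replicate 2, 0 of the 6 genes were called (adjusted p of 0.439 to 0.532 in limma) with log2 fold changes of 4.20 to 7.45, and with the replicate number as a block 0 were called (adjusted p of 0.158 to 0.172 in limma). In each of these 3 fits 0 of all 8215 genes were called in either direction, so that these counts are not particular to the tRNA genes. As CPM over all genes 5 of the 6 were lower in mitochondria and mt-Ti was not called, at 0.39, while 7968 of all 8215 tested genes (97.0%) were called lower. Bulk libraries of this kind cannot tell fewer mitochondria in a preparation from less RNA per mitochondrion. The next comparisons set the tRNA genes against other mitochondrial genes of the same library and do not depend on the size factors, unlike the profile distances and the calls of nuclear genes at the end. They can depend on read length, since mt-Tf and mt-Tv take no read at full length. Fragmentation time was adapted for mitochondrial samples, so library preparation may differ with the fraction. Such a difference cannot be told apart here from one in the RNA, and its part was not tested.

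Relative to mitochondrial mRNA the summed counts of the 6 tRNA genes were lower in both mitochondria libraries than in the others, while mt-Ti taken alone was not called in the fit by gene (-0.31 ± 0.24, SE). For every 10000 normalised counts of the 13 mitochondrial mRNA genes, the 6 tRNA genes together had 11.1 and 9.93 in mitochondria against 62.4 and 47.0. The means were 10.5 ± 0.830 and 54.7 ± 10.9 (SD, n = 2 each), and the groups did not overlap. On the log2 scale the difference was -2.37, with an exact two-sided permutation p = 0.33, the smallest that 2 against 2 libraries can give. Without each library in turn the difference lay between -2.57 and -2.16, against mt-Nd1 and mt-Nd2 alone it was -2.17, against both rRNA genes -2.46, and without mt-Tv, the gene with most counts, -1.78.

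A fit over all genes with the libraries scaled to the 13 mRNA genes called 5 of the 6 tRNA genes lower in mitochondria. Of all 8215 tested genes 97.2% were called lower in this fit, and only 17 of those 7984 genes were mitochondrially encoded. The count of 5 is below that share, and the adjusted p-values hardly differ from the unadjusted ones. The comparison of interest is with the other mitochondrial genes, of which 12 of 16 other tRNA genes were called lower and 1 higher, and 0 of 13 mRNA and 0 of 2 rRNA genes were called in either direction. The largest difference among the 6 was that of mt-Tv, -3.22 ± 0.25 (SE, adjusted p = 2.14e-05, limma; unadjusted p = 1.71e-05), which left 0.108 times the level relative to mRNA. The rRNA-flanking genes mt-Tl1 at -2.45 ± 0.32 and mt-Tf at -2.39 ± 0.33 came next, then mt-Tw at -2.16 ± 0.34 and mt-Tm at -1.77 ± 0.30, with adjusted p-values of 0.00036 to 0.00124 in limma. These values depended on the pseudocount, most of all that of mt-Tw. With 10 in place of 1, mt-Tv was at -2.97, mt-Tl1 at -2.01, mt-Tf at -1.82, mt-Tm at -1.53 and mt-Tw at -1.42, which turned the order of the last 2. At -0.31 ± 0.24 mt-Ti was not called (adjusted p = 0.25, limma; unadjusted p = 0.244), near the values of its mRNA neighbours mt-Nd1 (-0.11 ± 0.24) and mt-Nd2 (-0.37 ± 0.23). Without the non-mitochondrial replicate 1 it was called lower as well, at -0.38 (adjusted p = 0.0314, limma).

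**Figure D2:**
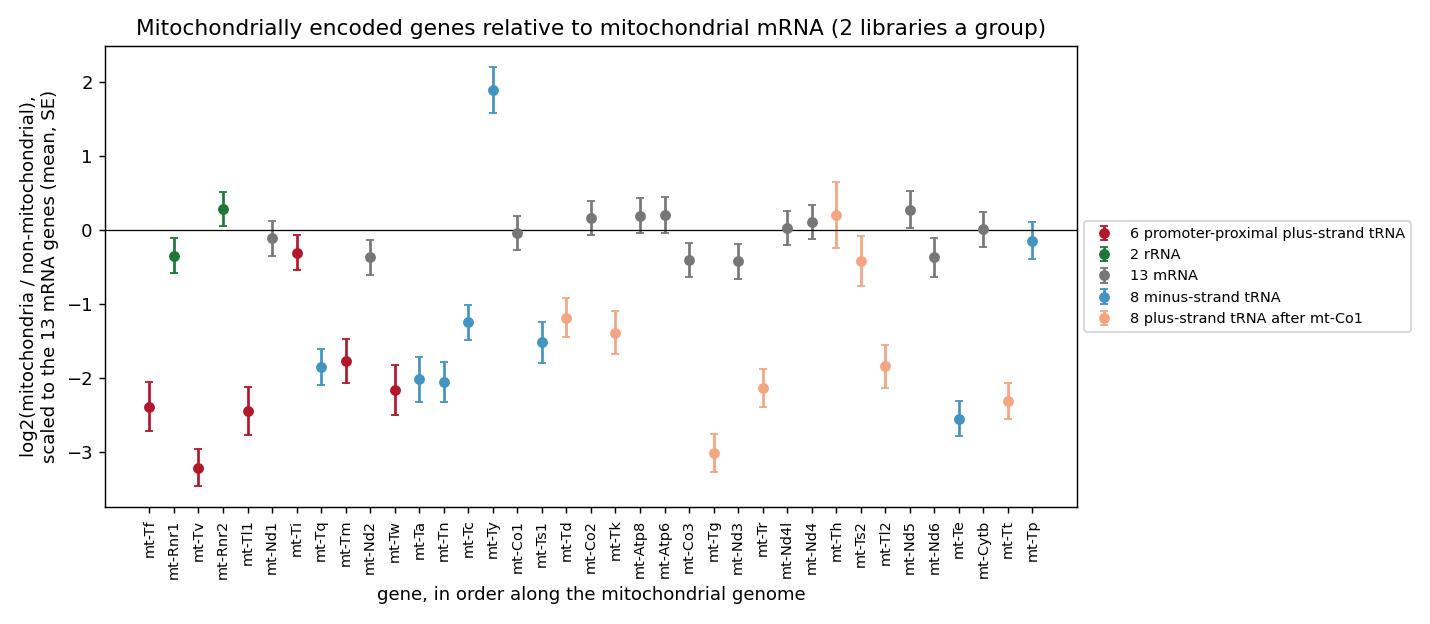
Log2 ratio of mitochondria to non-mitochondrial fraction, scaled to the 13 mitochondrial mRNA genes, for the 37 mitochondrially encoded genes in genome order, with points for the fitted mean and bars for the SE (2 libraries a group). The mRNA and rRNA genes lie between -0.42 and 0.29, and 5 of the 6 promoter-proximal tRNA genes between -3.22 and -1.77, with mt-Ti at -0.31.

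Set against the genes next to them, the tRNA genes were sparsely covered. Around the rRNA genes, the density of normalised counts per kb on mt-Tf was 0.0764% and 0.0724% of that on mt-Rnr1 in mitochondria against 0.451% and 0.235% in the other group. On mt-Tv it was 0.201% and 0.176% of the mean of mt-Rnr1 and mt-Rnr2 in mitochondria against 2.04% and 1.6% in the other group. On both genes the mitochondria libraries were the lower ones, with no overlap.

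The step at mt-Tl1 lies between an rRNA and an mRNA gene. Its density was 0.0674% and 0.0521% of that on mt-Rnr2 but 1.56% and 1.29% of that on mt-Nd1 in mitochondria, and 0.536% and 0.317% of mt-Rnr2 and 9.20% and 6.07% of mt-Nd1 in the non-mitochondrial fraction. Against either neighbour the mitochondria libraries were the lower ones, with no overlap.

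Between the mRNA genes the picture was uneven. The density on mt-Ti was 4.33% and 4.42% of the mean of mt-Nd1 and mt-Nd2 in mitochondria against 4.42% and 5.12%, almost level across the 4 libraries. On mt-Tm, with mt-Tq alone between both genes, it was 4.54% and 3.28% of the same mean in mitochondria against 13.5% and 10.2%. For mt-Tw, against mt-Nd2 and mt-Co1, the values were 0.741% and 0.777% against 4.64% and 2.53%. With 2 libraries a group each of these 6 ratios has an exact permutation p of at least 0.33 (two-sided). Against the mean of their neighbours the groups were apart for 6 of 6 genes. The other tRNA genes were not compared this way, so no share stands beside that count. The gap was least for mt-Ti, with 4.416% in mitochondria replicate 2 against 4.419% in non-mitochondrial replicate 1. Against mt-Nd2 alone mt-Ti had 7.49% and 7.25% in mitochondria and 6.91% and 7.29% in the other group, which overlapped.

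**Figure D3:**
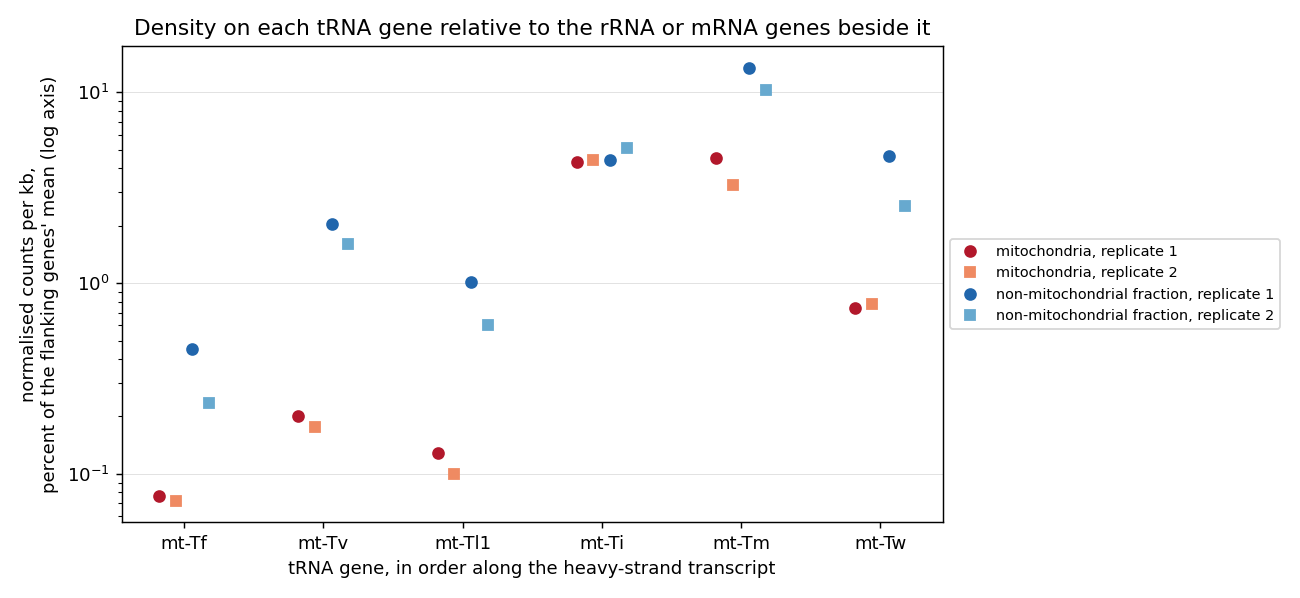
Normalised counts per kb of each tRNA gene as a percent of the mean over the nearest rRNA or mRNA genes beside it (log axis), with 1 point per library. The mitochondria points lie under the non-mitochondrial points at 6 of 6 genes, with a near tie at mt-Ti (4.33 and 4.42% against 4.42 and 5.12%). Other tRNA genes were not compared this way.

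The make-up of the group differed between the preparations. In mitochondria mt-Tv, mt-Ti and mt-Tm held similar parts of the 6 genes' summed normalised counts, 28.3% ± 0.666, 24.6% ± 2.33 and 21.8% ± 3.25 (SD, n = 2). In the non-mitochondrial fraction mt-Tv alone held 52.2% ± 3.52, mt-Tm 14.7% ± 0.33 and mt-Ti 6.04% ± 1.65. The parts of mt-Tl1 (12.2% ± 0.828 and 13.5% ± 2.09), mt-Tf (8.20% ± 0.714 and 8.94% ± 1.71) and mt-Tw (4.81% ± 0.373 and 4.67% ± 1.04) overlapped between the groups. Against the mean log2 of the other 5 genes, mt-Ti stood at 0.88 and 1.09 in mitochondria against -1.56 and -0.78, a difference of 2.15, and mt-Tv at 1.22 and 1.25 against 2.46 and 2.73, a difference of -1.36. Both differences exceeded the spread within either group, with the exact permutation p = 0.33 that is the smallest possible here.

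**Figure D4:**
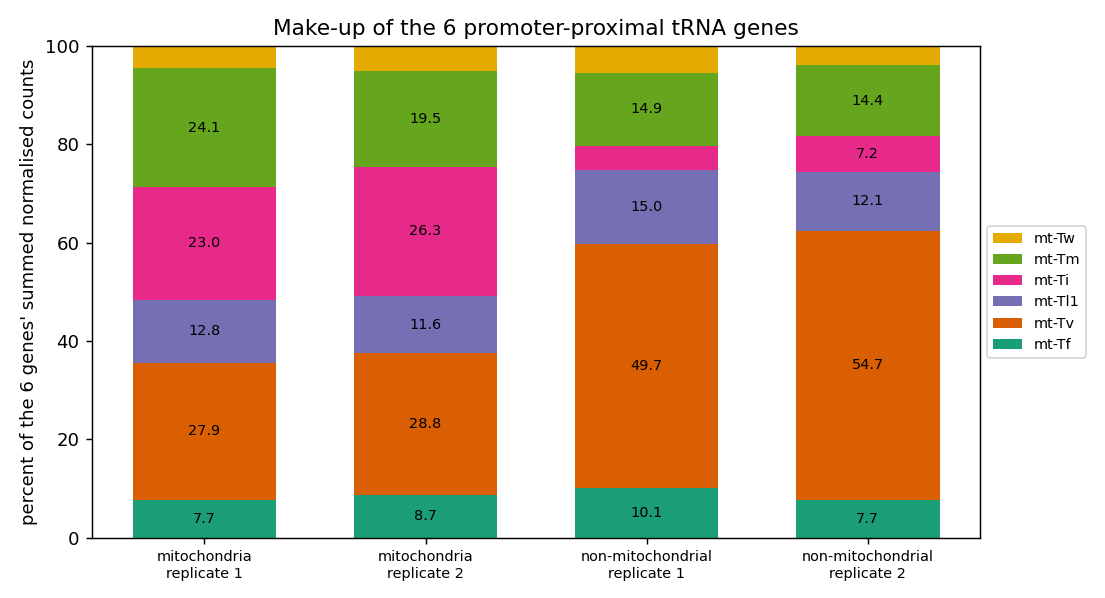
Stacked shares (percent, from 0 to 100) of the 6 promoter-proximal tRNA genes in their summed normalised counts, with 1 bar per library and parts over 6% printed. The part of mt-Tv is 27.9% and 28.8% in mitochondria against 49.7% and 54.7%, and the part of mt-Ti 23.0% and 26.3% against 4.87% and 7.21%.

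Within all 22 mitochondrial tRNA genes the 6 took 12.7% and 14.6% in mitochondria against 34.4% and 32.8% (means 13.6% ± 1.34 and 33.6% ± 1.09, SD, n = 2 each, exact two-sided permutation p = 0.33). Leaving out mt-Tp, which had the highest mean of the other 16 tRNA genes, gave 20.8% and 41.2%. The genes mt-Th (57446 and 19000 in mitochondria against 160 and 153) and mt-Ty (29826 and 25570 against 44 and 36) stayed in that total. Both weigh far more in the mitochondria libraries, and the share without them was not computed. Gene by gene the contrast was smaller, with a difference of -0.57 between the mean log2 of the 6 and that of the other 16. Per 10000 mRNA counts the 8 plus-strand tRNA genes after mt-Co1 had 24.8 ± 9.42 and 53.6 ± 10.2, and the 8 minus-strand genes 42.6 ± 3.49 and 54.0 ± 6.0, beside 10.5 and 54.7 for the 6. The median log2 difference relative to mRNA was -2.27 over the 6 genes, -1.62 over the 8 later plus-strand genes and -1.68 over the minus-strand genes, with ranges that overlap. With a pseudocount of 10 in place of 1 the median of the 6 was -1.68, and the other medians were not taken at that setting. Among the later plus-strand genes the values ran from -3.01 at mt-Tg to 0.20 at mt-Th.

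As a share of the whole library the 6 genes took 0.0140% ± 0.00153 in mitochondria and 0.0439% ± 0.00544 in the non-mitochondrial fraction. With both rRNA genes left out of the total, the shares were 0.0775% ± 0.006 and 0.0826% ± 0.00213 and overlapped. Among the 37 mitochondrially encoded genes they took 0.0147% ± 0.00163 and 0.0805% ± 0.0183.

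The minus-strand tRNA genes between mt-Ti and mt-Co1, which are copied from the other strand, gave the closest comparison by position. For glutamine tRNA mt-Tq, which lies between mt-Ti and mt-Tm, the normalised counts were 3079 and 1995 in mitochondria against 47 and 56, -1.85 ± 0.24 relative to mRNA. Its plus-strand neighbours mt-Ti and mt-Tm stood at -0.31 and -1.77. Beyond mt-Tw, alanine tRNA mt-Ta had 4952 and 2705 against 87 and 81 (-2.02 ± 0.31), asparagine tRNA mt-Tn 4594 and 3023 against 89 and 87 (-2.06 ± 0.27) and cysteine tRNA mt-Tc 374 and 331 against 5 and 7 (-1.25 ± 0.24), with adjusted p-values of 0.000349 to 0.00225 in limma. The last of this cluster, tyrosine tRNA mt-Ty, had 29826 and 25570 against 44 and 36 and was called higher relative to mRNA, at 1.89 ± 0.31 (adjusted p = 0.00111, limma). Of these 5 minus-strand genes, 4 stood in the range of the 6 and mt-Ty outside it. That range, -3.22 at mt-Tv to -0.31 at mt-Ti, also holds mt-Nd2 (-0.37) and mt-Rnr1 (-0.35), so standing in it shows no likeness to the 6.

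The genes whose centred profile of log2(normalised count + 1) over the 4 libraries lay closest to the mean profile of the 6 were mt-Tn, mt-Ta and mt-Tq, at Euclidean distances of 0.0494, 0.233 and 0.296. Of the 6 themselves, mt-Tw (0.349) and mt-Tm (0.393) were closest to that mean and mt-Tv (1.13) and mt-Ti (1.84) farthest from it. The points of this measure share libraries and size factors, and with 4 libraries it is a description.

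Genes that process, modify and charge these tRNAs, or transcribe the mitochondrial genome, are nuclear, and all 28 of the list were in the table, at normalised counts of 1 to 182 in the non-mitochondrial fraction. In mitochondria no gene of the list had more than 17 reads in a library, 13 were at 0 in replicate 1 and 8 in replicate 2. Limma called 0 of the 19 that passed the filter, against 5.21% of all tested genes called in either direction, while 1 had an unadjusted p under 0.05, and edgeR and DESeq2 called 0 as well, beside 3.65% and 3.31% of all tested genes. This count did not hold without mitochondria replicate 1 or 2, where 5 and 12 of the list were called (46.8% and 54.6% of all genes), or as CPM over all genes or nuclear genes, where 19 were (97.4% and 92.1%). Their median log2 fold change was -1.23, as that of all tested genes. Genes at or under a floor of 3 reads in both mitochondria libraries (9 of the 19, and 3204 of all 8215) were then set to that floor. This gave medians of -0.29 and -0.48.

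Among the synthetases that charge the 6 tRNAs, Lars2 (leucine) had 117 and 76 in mitochondria against 54 and 44, and Fars2 (phenylalanine) 33 and 62 against 47 and 33. Iars2 (isoleucine) had 25 and 117 against 182 and 133. Vars2 (valine) had 0 and 41 against 39 and 28, Mars2 (methionine) 0 and 7 against 21 and 17, and Wars2 (tryptophan) 8 and 0 against 5 and 9. A single read was worth 8.32 or 6.90 units in mitochondria, so the values of the latter 3 rest on 0 to 6 reads a library there, and Wars2 did not pass the filter. For the end-processing enzymes, Trmt10c and Hsd17b10 of the mitochondrial RNase P, which cuts the 5' end, had 2 to 5 reads in a mitochondria library, its nuclease subunit Prorp had 0 in both, and Elac2, which cuts the 3' end, 0 and 1.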

How the data were processed

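Mapping was not repeated. Per the study's methods, single-end reads of a stranded total-RNA kit were trimmed with Trimmomatic 0.39, aligned to GRCm38 (mm10) with STAR and counted per gene over exons with featureCounts, leaving out reads of several genes or positions. The submitters' processing notes name STAR 2.7.10a, featureCounts 2.0.2 and DESeq2 1.30.1, and the study's methods give other versions for these 3. Fragmentation time was adapted to the RNA size of mitochondrial samples, so library preparation may differ with the fraction. Whether counting used strand is not given in the sources used here.

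The deposited values are a signal, gene counts that the authors divided by a size factor per library and rounded, called normalised counts. In the mitochondria columns the deposited signal rises in steps of 1 read, and 100% of values lay within 0.5 units of a whole number of reads. In the other columns reads were not recovered. No other column held values (0).

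Genes with a mean of at least 10 were compared as log2(normalised count + 1) with limma 3.58.1 in R 4.3.3 between both groups of 2 libraries, without a block, and p-values were adjusted over all 8215 genes by Benjamini-Hochberg (threshold 0.05). A fold change on this scale understates that of low genes. The relative fit used the 13 mitochondrial mRNA genes as reference, and ratios within a library used exact permutation tests in scipy 1.17.1. Alternatives were pseudocounts of 10 and 0.5, other filters (none, or a mean of at least 50), 4 other scalings, the trend option, a replicate block, leaving out each library, and count tests (DESeq2 1.42.0 and edgeR 4.0.16), for which deposited values stood in for reads in the non-mitochondrial libraries. The fits were tested on simulated data. Named genes were the 6 members, the rRNA, mRNA and minus-strand tRNA genes among them up to mt-Co1, the extremes of the later plus-strand tRNA genes, the synthetases and the 3 closest profiles. Cep295, Trmt10c, Hsd17b10, Prorp, Elac2 and mt-Tp were named after their values were seen. Members and lists were chosen with earlier results of these data known.

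Sequences came from GENCODE M21, whose coordinates equalled those of the table for 37 of 37 mitochondrial genes, and were matched to nuclear transcripts with BLAST 2.17.0.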

Additional observations from a re-analysis of the deposited data

How the results depend on the processing

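The number of the 6 tRNA genes called higher in mitochondria was 6 with other pseudocounts, filters, the trend option, TMM, median ratios over nuclear genes, edgeR and DESeq2 (0.645% to 3.09% of all genes called higher), 5 with CPM over nuclear genes (mt-Tv at 0.74 was not called; 0.84% of all genes), and 0 with CPM over all genes (0.377%) and at an adjusted p under 0.01 (0%). Under CPM over all genes 5 genes turned direction, to -1.68 (mt-Tf), -2.50 (mt-Tv), -1.73 (mt-Tl1), -1.06 (mt-Tm) and -1.46 (mt-Tw). Leaving out 1 library gave 0 to 6 calls, 0 without either non-mitochondrial library; the lone library was then assumed to vary like the other group. The number called lower relative to mitochondrial mRNA was 5 or 6 over its 12 alternatives, in which 83.8% to 97.9% of all genes were called lower, so that this count says little about the 6 genes. The shares of the library and of the 22 tRNA genes and the ratio to mRNA kept the direction of their mean difference under the alternatives run for them. For the share of the library without the rRNA genes (means 0.0775% and 0.0826%) the groups overlapped.

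With the replicate block, 0 of the 6 genes were called higher and 5 lower relative to mRNA, beside 0 and 8034 of all 8215 genes (97.8% lower). The labels give both groups the numbers 1 and 2 and state no pairing, and the deviations of same-numbered libraries had a correlation of 0.112 over genes, which rests on 1 difference per group, so the samples may share only a number. For the tRNA maturation list the calls were 0, but 4 without the filter (21.6% of all genes called in either direction), 19 with CPM over all genes (97.4%) or over nuclear genes (92.1%), and 0 to 12 without 1 library (5 and 12 without mitochondria replicate 1 and 2, with 46.8% and 54.6% of all genes called). The causes were not tested. In mitochondria 1 read was worth several units, which sets the precision of low nuclear genes there.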
